A study of Mus musculus with 6 samples.

Results

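Transcripts of smooth muscle, pericytes and the contractile cytoskeleton were compared between creeping fat, the mesenteric fat that wraps the injured bowel, and uninjured mesenteric fat of mice. The 42 genes were taken by symbol from the deposited table of 22134 genes, and all 42 were found. The table holds 3 libraries of creeping fat from wild-type mice whose colon was injured repeatedly by cautery, and 3 libraries of mesenteric adipose tissue from wild-type mice without injury, the controls. For strain, age and sex the answer is not given in the sources used here, and the labels do not say whether each library is a different animal. The p-values below therefore reflect only how these libraries vary, and part of that may be technical. FPKM values count the fragments of each gene per kilobase of its length and per unit of sequencing depth, so levels can be compared between genes.

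Contraction of smooth muscle rests on filaments of myosin II that pull on actin filaments. Calcium activates myosin light chain kinase, which phosphorylates the regulatory light chain, and myosin phosphatase reverses this step. In blood vessels of adipose tissue the contractile cells are the smooth muscle cells of arteries and veins and the pericytes of capillaries. The gut wall and the muscular coats of glands hold visceral smooth muscle, which is rich in the gamma actin Actg2 and in desmin. Most contractile proteins also have broadly expressed relatives, used by fibroblasts and other motile cells for tension, adhesion and division. For description the 42 genes were split into 18 that mark smooth muscle, 20 that are broadly expressed and 4 that mark pericytes.

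A gene counted as called when limma's moderated test on log2(FPKM + 1) gave a Benjamini-Hochberg adjusted p under 0.05 over the 12812 genes tested, those with at least 1 FPKM in at least 3 libraries. Fold changes are creeping fat minus control on this log2 scale, which compresses the change of weakly expressed genes. Worked back from FPKM, the libraries held 32837045 to 36158204 reads in creeping fat and 31186018 to 43415696 reads in controls, with overlap. Seminal vesicle transcripts summed to 16330 to 31560 FPKM in creeping fat and at most 54.4 FPKM in controls. Pancreatic acinar transcripts summed to 13.1 to 4773 FPKM in creeping fat and 14720 to 36800 FPKM in controls. Both sums moved with the group, and whether muscle of these organs came along was not tested. Rescaling the libraries without these 22 genes left every tested member on its side of the threshold. In bulk tissue, fewer cells of a type and less RNA per cell cannot be told apart.

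In creeping fat 7 of the 40 tested members rose, 1 fell and 32 did not pass. Over all tested genes 9.35% rose and 6.81% fell, or 16.2% in either direction. The 8 calls in both directions were thus near the background, with a larger share of rises and a smaller share of falls than over all genes, a difference that was not tested. The members that rose were the nonmuscle myosin gene Myh10, the calponin gene Cnn3, the transgelin gene Tagln2, the caldesmon gene Cald1, the filamin gene Flna, the adaptor gene Pdlim7 and the receptor gene Pdgfrb. The member that fell was Cspg4, which encodes the pericyte proteoglycan NG2. Of the 16 tested smooth muscle genes 0 were called, either by limma or by its voom variant run on read numbers recovered from FPKM. At an unadjusted p under 0.05 in limma 3 of the 16 were higher, a share similar to the 2184 of all 12812 tested genes. Of the 20 broadly expressed genes 6 rose and 14 did not pass. The difference between the 2 classes was not tested. The median log2 fold change of the members was 0.54, against 0.02 over all tested genes, and 32 of the 40 were positive. Every creeping fat library lay above every control in 12 of the 40 and below every control in 1, and the groups overlapped in 27. The 12 were the 7 that rose and Cnn1, Cnn2, Smtn, Actn1 and Srf. For Srf the margin was slight, 11.73 FPKM in creeping fat 2 against 11.72 FPKM in control 3. Of all tested genes 20.2% lay above and 16.9% below in this way, 37% in all.

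**Figure D1:**
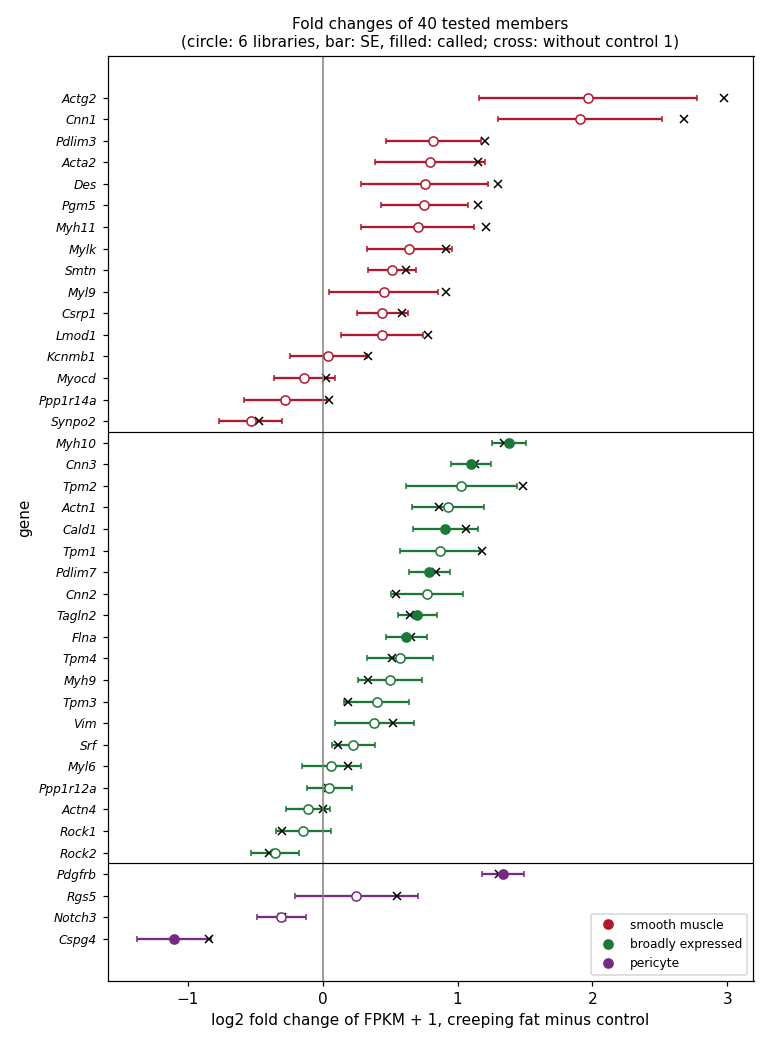
Log2 fold change of FPKM + 1, creeping fat minus control, for the 40 tested members in 3 classes; circles use all 6 libraries, bars are limma's SE, filled circles are called, and crosses leave out control 1. The called genes are 6 broadly expressed genes, Pdgfrb and Cspg4, and the crosses of most smooth muscle genes lie to the right of their circles. Leaving out the highest control always raises a fold change, and control 1 was that control in 15 of the 16 tested genes of this class.

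The count of calls depended on single libraries. Leaving out any one of creeping fat 1, creeping fat 2 or control 3 gave 3 higher and 0 lower members, and leaving out creeping fat 3 gave 4 and 0. The shares of all genes dropped in these settings too. With creeping fat 1 left out 4.5% of all genes passed as higher and 2.24% as lower. With creeping fat 2 left out the shares were 5.46% and 3.79%, with creeping fat 3 left out 4.99% and 2.67%, and with control 3 left out 4.89% and 2.39%. The count was 12 higher and 0 lower without control 1, where 6.12% of all genes were higher and 3.98% lower. Without control 2 it was 11 higher and 2 lower, against 22.6% and 14.5% of all genes. The 12 called without control 1 were Actg2, Cnn1, Myh11, Des, Pdlim3 and Pgm5 of the smooth muscle class, with Myh10, Cnn3, Pdlim7, Tpm1, Tpm2 and Pdgfrb. Without control 2 the 7 genes that rose with all libraries were joined by Cnn2, Myh9, Tpm3 and Actn1, and Cspg4 by Synpo2. The calls of Myh10, Cnn3 and Pdgfrb held in all 15 settings run, the reported one included. Leaving out 1 library also leaves fewer samples in the test.

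Control 1 stood apart in the smooth muscle genes. It was the highest of the 3 controls in 15 of the 16 tested genes of this class, against 16.9% of all tested genes. It lay above the range of the creeping fat libraries in 7 of the 16 and within that range in 7 more. Of the 16 tested genes only Cnn1 and Smtn had every creeping fat library above control 1. The 18 genes of the class summed to 1221, 1170.0 and 865 FPKM in creeping fat (libraries 1, 2 and 3 in turn), against 1133, 446 and 539 FPKM in controls. The summed level of control 1 was thus among those of creeping fat, while control 2 and 3 were lower than all 3. The spread within controls, as the median over genes of the range on the log2 scale, was 1.14 in this class and 0.55 over all tested genes. Within creeping fat it was 0.52 in this class and 0.27 over all tested genes. Between control 2 and 3 alone it was 0.15 in this class and 0.39 over all tested genes. A range of 2 of the controls cannot exceed that of all 3. Seminal vesicle transcripts summed to 0.171 FPKM in control 1, the lowest of the 6 libraries. Pancreatic acinar transcripts summed to 32120 FPKM in control 1 and to 36800 and 14720 FPKM in control 2 and 3. Whether muscle of either organ was in control 1 was not tested. The 20 broadly expressed genes summed to 2444, 2433 and 2310.0 FPKM in creeping fat and 1911, 1564 and 1924 FPKM in controls, with no overlap.

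**Figure D2:**
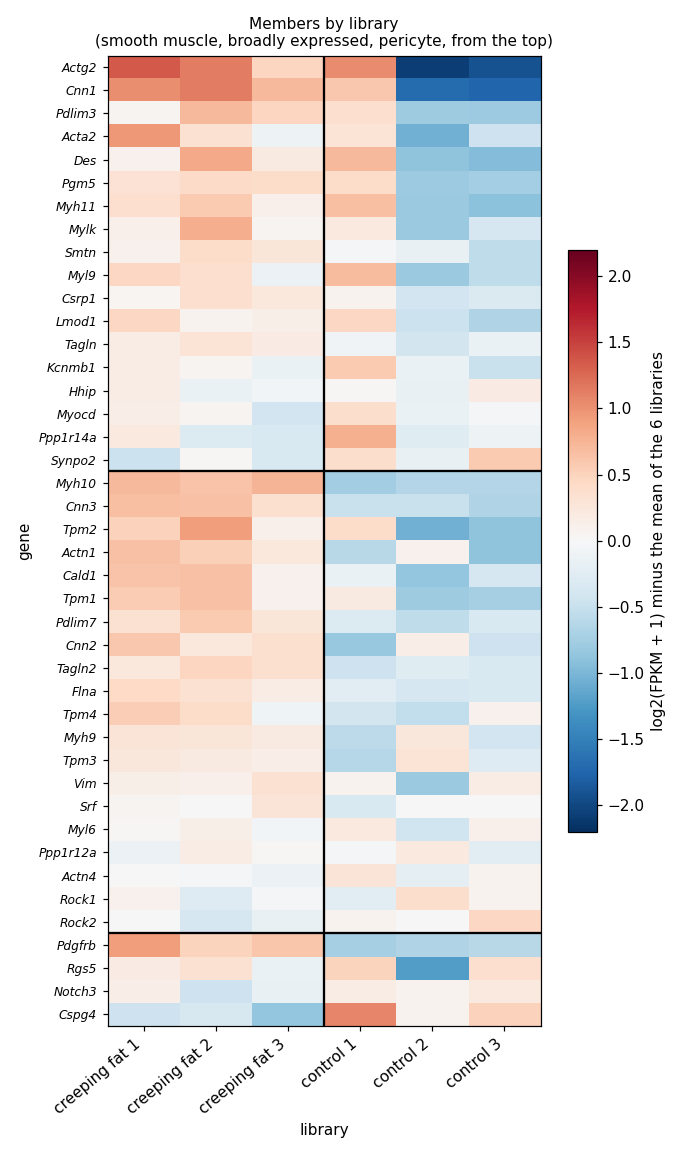
Log2(FPKM + 1) of the 42 members minus their mean over the 6 libraries, with genes in rows (smooth muscle, broadly expressed and pericyte genes from the top) and libraries in columns. In 15 of the 16 tested smooth muscle rows, all but Synpo2, control 1 is the highest control; Actg2 stood at 111 FPKM there and at 11.97 and 13.5 FPKM in control 2 and 3.

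Acta2 had the highest mean level of the smooth muscle genes in both groups. This vascular alpha actin, which myofibroblasts also make, stood at 427, 278 and 204 FPKM in creeping fat and 272, 105 and 160.0 FPKM in controls. Actg2, the visceral gamma actin on chromosome 6 (83512905 to 83536265, minus strand), stood at 138, 118 and 74.9 FPKM in creeping fat and 111, 11.97 and 13.5 FPKM in controls. For both genes the groups overlapped, through control 1. Acta2 did not pass (0.80 ± 0.41, SE; adjusted p = 0.245), with 1.15 without control 1 and 0.47 without control 2. Actg2 did not pass either (1.97 ± 0.81; adjusted p = 0.153), but passed without control 1 (2.98, adjusted p = 0.00653).

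Calponins bind actin and slow its cycling on myosin, and the set holds the smooth muscle form Cnn1 and the broader forms Cnn2 and Cnn3. Cnn1 (chromosome 9, 22099216 to 22109630, plus strand) stood at 60.6, 65.1 and 48.5 FPKM in creeping fat and 44.5, 8.32 and 8.01 FPKM in controls. All creeping fat libraries were higher, control 1 only by a little, and the gene passed without control 1 (2.68, adjusted p = 0.00271) but not with it (1.91 ± 0.61, adjusted p = 0.0807). Cnn3 (chromosome 3, 121426497 to 121458207, plus strand) stood at 79.2, 78.4 and 63.7 FPKM in creeping fat and 35.0, 35.1 and 31.2 FPKM in controls. It rose by 1.10 ± 0.15 (adjusted p = 0.00537), and control 1 lay with the other controls. Cnn2 averaged 109 ± 14.4 FPKM in creeping fat, against 65.8 ± 23.4 FPKM in controls (SD, n = 3 each), did not overlap between groups and passed without control 2 (1.04, adjusted p = 0.00497) but not with it (adjusted p = 0.0969).

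**Figure D3:**
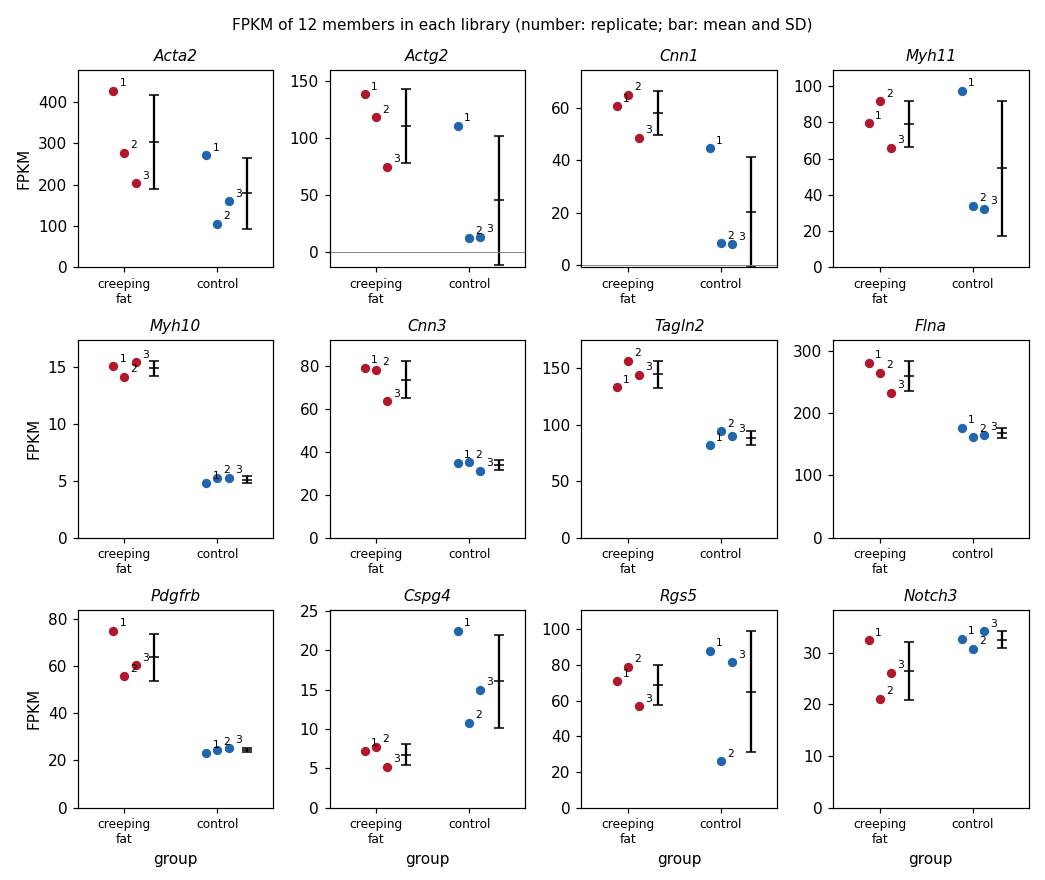
FPKM of 12 members in each of the 6 libraries, with the replicate number at each point and a bar for the mean and SD of 3 libraries. Acta2, Actg2, Cnn1 and Myh11 have control 1 near creeping fat, whereas the controls of Myh10, Cnn3, Tagln2, Flna and Pdgfrb lie close together below every creeping fat library.

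Transgelins are small calponin relatives that bundle actin. Tagln2, the broad form, stood at 133, 157 and 144 FPKM in creeping fat and 81.8, 94.1 and 89.6 FPKM in controls, and rose by 0.70 ± 0.15 (adjusted p = 0.0203). Its call was lost without each library other than control 2, with adjusted p of 0.0638 to 0.0901. Tagln, which encodes SM22 and is a standard smooth muscle marker, was listed at 0.628, 0.794 and 0.653 FPKM in creeping fat and 0.389, 0.101 and 0.320 FPKM in controls. These values amount to 36, 44 and 34 reads against 24, 5 and 22 reads, and the gene was under the expression filter. In the same libraries Acta2 had 9302 to 43737 reads. In GENCODE M21, 62.4% of the exon bases of Tagln (chromosome 9, 45929619 to 45936058, minus strand) overlap the antisense gene Gm48529 on the other strand, and 5.4% overlap Pcsk7. The strand setting of the counting is not given in the sources used here, and whether reads of Tagln were left out for this reason was not tested.

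Of the other thin filament genes, Cald1, whose product caldesmon blocks the actin and myosin interaction, rose by 0.91 ± 0.24 (45.2 ± 9.43 against 23.7 ± 5.86 FPKM, adjusted p = 0.0473). Its call was close to the threshold and was lost without each library other than control 2 (adjusted p 0.0548 to 0.17). Cald1, Mylk and the tropomyosin genes make smooth muscle and nonmuscle isoforms from 1 gene, which gene values do not separate. Smtn, which encodes smoothelin of contractile smooth muscle, stood at 20.1, 25.1 and 22.8 FPKM in creeping fat and 18.0, 16.5 and 12.5 FPKM in controls, with no overlap, and did not pass (0.51 ± 0.18, adjusted p = 0.0985). Lmod1, the leiomodin that starts actin filaments in smooth muscle, was at 10.2 ± 1.67 and 7.73 ± 3.87 FPKM. Synpo2, which encodes the Z-line protein myopodin, went the other way at 14.3 ± 2.81 against 21.4 ± 5.62 FPKM. It did not pass (-0.54 ± 0.24, adjusted p = 0.181), but passed without control 2 (-0.75, adjusted p = 0.016).

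Of the 5 myosin genes 1 rose and 4 did not pass. Myh10, the heavy chain of nonmuscle myosin IIB (chromosome 11, 68691559 to 68816632, plus strand), stood at 15.1, 14.2 and 15.5 FPKM in creeping fat and 4.77, 5.28 and 5.27 FPKM in controls. It had the smallest adjusted p of the 40 members and rose by 1.38 ± 0.12 (adjusted p = 0.00149), a 2.92-fold ratio of mean FPKM. Myh9, the heavy chain of nonmuscle myosin IIA, was more abundant, at 221, 219 and 209.7 FPKM in creeping fat and 122, 217 and 135 FPKM in controls. Control 2 lay within the creeping fat range, and Myh9 passed without it (0.75, adjusted p = 0.00545) but not with it (0.50 ± 0.24, adjusted p = 0.213). Myh11, the smooth muscle heavy chain, stood at 79.5, 91.7 and 66.1 FPKM in creeping fat and 97.4, 34.2 and 32.4 FPKM in controls. Control 1 was the highest library of all 6, and Myh11 passed without it (1.21, adjusted p = 0.0199) but not with it (0.71 ± 0.42, adjusted p = 0.317).

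The light chains did not pass. Myl9, the regulatory light chain of smooth muscle, stood at 201, 190.1 and 134 FPKM in creeping fat and 241, 83.3 and 99.6 FPKM in controls, again with control 1 above every other library. Myl6, the essential light chain shared by smooth and nonmuscle myosin, averaged 346 ± 23.7 FPKM in creeping fat and 336 ± 76.4 in controls, and its difference of 0.06 turned to -0.14 without control 2.

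The 4 tropomyosins, which lie along actin filaments, had positive fold changes from 0.40 to 1.03, and none passed in limma with all libraries or in voom. At an unadjusted p under 0.05 in limma 2 of the 4 were higher, against 2184 of all 12812 tested genes. Tpm1 stood at 65.7, 69.5 and 47.4 FPKM in creeping fat and 50.7, 25.4 and 26.4 FPKM in controls, and Tpm2 at 36.6, 48.7 and 27.3 against 33.7, 11.7 and 13.2 FPKM. Both are abundant in muscle, and in both control 1 lay within the creeping fat range. They passed without control 1 (Tpm1 1.18, adjusted p = 0.0279; Tpm2 1.49, adjusted p = 0.0268). Tpm3 and Tpm4, the more broadly used forms, had 32.9 ± 1.23 against 25.6 ± 8.83 FPKM and 137 ± 29.9 against 91.8 ± 22.2 FPKM. Tpm3 passed without control 2 (0.65, adjusted p = 0.0121), which was its highest control at 35.4 FPKM.

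No regulator of myosin phosphorylation passed in limma with all libraries, in voom or at an unadjusted p under 0.05 (0 of 6). Of all 12812 tested genes 2184 were higher and 1759 lower at that unadjusted p in limma. Mylk, the light chain kinase, averaged 55.3 ± 17.1 FPKM in creeping fat and 35.6 ± 13.2 in controls (0.64 ± 0.32, adjusted p = 0.227). Ppp1r12a, the targeting subunit of myosin phosphatase, averaged 26.5 ± 2.80 and 25.8 ± 4.28 FPKM. Its inhibitor Ppp1r14a, also called CPI-17, averaged 4.98 ± 1.35 and 6.54 ± 3.16 FPKM, with the highest value, 10.2 FPKM, in control 1. The kinases Rock1 and Rock2, which inhibit the phosphatase, were at 14.4 ± 2.05 against 16.2 ± 3.81 FPKM for Rock1 and 18.0 ± 2.34 against 23.4 ± 4.35 FPKM for Rock2. Kcnmb1, the smooth muscle beta subunit of the large-conductance calcium-activated potassium channel, was near the filter at 1.25 ± 0.244 and 1.29 ± 0.893 FPKM.

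Among intermediate filaments, adaptors and crosslinkers, Flna and Pdlim7 rose. Flna, the filamin that crosslinks cortical actin, stood at 281, 264 and 233 FPKM in creeping fat and 176, 162 and 165 FPKM in controls (0.62 ± 0.15, adjusted p = 0.0359). Pdlim7, a LIM-domain adaptor of actin bundles, stood at 28.2, 33.3 and 26.7 FPKM in creeping fat and 17.8, 14.6 and 17.3 FPKM in controls (0.79 ± 0.15, adjusted p = 0.0153). In both genes every creeping fat library lay above every control. The call of Flna was lost without each library other than control 2 (adjusted p 0.0748 to 0.163). That of Pdlim7 was lost without creeping fat 1, creeping fat 2 or control 3 (adjusted p 0.0581 to 0.0665). Actn1, a crosslinking alpha-actinin of stress fibres, did not overlap between groups at 59.8 ± 8.43 against 32.02 ± 12.1 FPKM and passed without control 2 (1.21, adjusted p = 0.00233) but not with it (0.93 ± 0.27, adjusted p = 0.0601). Its relative Actn4 was at 66.8 ± 2.90 and 72.8 ± 12.1 FPKM.

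Vim, the intermediate filament of mesenchymal cells and the most abundant member, averaged 691 ± 57.9 FPKM in creeping fat and 552 ± 184 in controls, where control 2 alone was low at 341 FPKM. Des, which encodes desmin of muscle cells, stood at 55.0, 92.7 and 58.8 FPKM in creeping fat and 84.6, 27.2 and 26.04 FPKM in controls. Pdlim3 and Pgm5, both of muscle attachment and filament anchoring sites, also had control 1 as the highest control. Control 1 had 13.2 and 18.5 FPKM for Pdlim3 and Pgm5, whereas control 2 and 3 had 5.41 and 5.32 FPKM for Pdlim3 and 7.43 and 7.74 FPKM for Pgm5. Without control 1 all 3 passed, with 1.30 for Des (adjusted p = 0.0348), 1.21 for Pdlim3 (adjusted p = 0.0297) and 1.15 for Pgm5 (adjusted p = 0.0112). With all libraries their adjusted p were 0.337, 0.167 and 0.169 (in the same order). Csrp1, a LIM protein of smooth muscle, averaged 147 ± 16.9 and 109 ± 20.5 FPKM and did not pass.

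The transcription factors of the programme, Srf and Myocd, were not called, and Myocd had low values. Srf, the serum response factor that binds the CArG box of contractile genes, stood at 12.2, 11.7 and 14.5 FPKM in creeping fat and 9.07, 11.7 and 11.7 FPKM in controls (0.23 ± 0.16, adjusted p = 0.4). Its cofactor Myocd, myocardin, stood at 2.67, 2.43 and 1.48 FPKM in creeping fat and 3.34, 1.99 and 2.196 FPKM in controls (-0.14 ± 0.22, adjusted p = 0.746). Control 1 was the highest library for Myocd and the lowest for Srf. Hhip, which encodes a hedgehog-binding protein, was under the filter at 0.452 ± 0.163 and 0.48 ± 0.18 FPKM.

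RefSeq promoter windows, 250 bases before to 50 after the annotated start, were at hand for 36 of the 42 members. CArG boxes, searched by that name on both strands as exact matches of 10 bases, a motif that reads as the same pattern on both strands, lay in the windows of 4 of these 36 genes, Srf, Cnn2, Myl9 and Myl6. That was 11.1% of them, against 1.81% of all 27025 genes with a window, and the difference was not tested. The upstream bases of 3 of the 4 are shown for the motif, read on the gene's strand in GRCm38.p6 and ended where the GENCODE gene begins, with CArG boxes in capitals. They cover chr17:46556176-46556412 on the minus strand for Srf, chr10:79988350-79988583 on the plus strand for Cnn2 and chr2:156775214-156775419 on the plus strand for Myl9.
Srf: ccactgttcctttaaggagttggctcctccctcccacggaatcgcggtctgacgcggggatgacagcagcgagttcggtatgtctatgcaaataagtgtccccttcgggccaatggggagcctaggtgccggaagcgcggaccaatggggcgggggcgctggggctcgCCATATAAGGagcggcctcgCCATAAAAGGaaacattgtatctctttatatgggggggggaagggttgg
Cnn2: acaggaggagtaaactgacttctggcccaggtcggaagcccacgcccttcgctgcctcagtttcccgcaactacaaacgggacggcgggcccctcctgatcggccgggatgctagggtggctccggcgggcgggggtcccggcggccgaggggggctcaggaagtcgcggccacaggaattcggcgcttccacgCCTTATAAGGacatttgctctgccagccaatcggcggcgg
Myl9: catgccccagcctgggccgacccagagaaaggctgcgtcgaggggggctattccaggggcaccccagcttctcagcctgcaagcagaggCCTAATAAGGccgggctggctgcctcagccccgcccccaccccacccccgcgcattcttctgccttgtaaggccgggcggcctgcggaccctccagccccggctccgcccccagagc
The boxes begin at -82 and -62 from the annotated start of Srf, at -56 for Cnn2 and at -161 for Myl9. Srf, Cnn2, Myl9 and Myl6 did not pass. Of the members that rose, Myh10, Cnn3, Tagln2, Cald1, Flna and Pdlim7 had no match in their windows, and Pdgfrb had no window. In the smooth muscle class 1 of the 14 genes with a window had an exact match, and Acta2, Cnn1 and Des were without one. A match or its absence describes these letters only and says nothing of binding.

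The 4 pericyte markers did not move together. Pdgfrb, the receptor by which pericytes respond to platelet-derived growth factor and which fibroblasts also carry, stood at 75.0, 55.8 and 60.5 FPKM in creeping fat and 23.4, 24.5 and 25.4 FPKM in controls. It rose by 1.34 ± 0.15 (adjusted p = 0.00354), 2.61-fold in mean FPKM. Cspg4 (chromosome 9, 56865033 to 56899870, plus strand) stood at 7.20, 7.76 and 5.21 FPKM in creeping fat and 22.5, 10.8 and 15.0 FPKM in controls. It fell by 1.10 ± 0.27 (adjusted p = 0.0372), with all creeping fat libraries below all controls, and the call was lost without each library other than control 2 (adjusted p 0.0738 to 0.132). Rgs5, a regulator of G-protein signalling that marks pericytes, was at 70.8, 79.0 and 56.7 FPKM in creeping fat and 87.8, 25.96 and 81.4 FPKM in controls. It did not pass (0.25 ± 0.45, adjusted p = 0.773) and stood at -0.31 without control 2. Notch3, the mural cell receptor, averaged 26.5 ± 5.68 and 32.5 ± 1.68 FPKM and did not pass (-0.31 ± 0.18, adjusted p = 0.31).

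Fibroblast markers were read beside Pdgfrb. The 10 genes of a fibroblast and myofibroblast list summed to 10180 to 13730 FPKM in creeping fat and 1004 to 1372 FPKM in controls, and all 10 rose, against 9.35% of all tested genes. With 1 library left out, Fap kept its call in 1 of 6 settings, Pdgfra and Dpt in 3, Fn1 in 5 and the others in all 6. Of 8 endothelial markers 2 fell, against 6.81% of all tested genes, and both calls were lost without creeping fat 1, creeping fat 3 or control 3. The endothelial sums were 214 to 298 FPKM in creeping fat and 320.2 to 359 FPKM in controls. Adipocyte markers summed to 1159 to 2918 FPKM in creeping fat and 4935 to 14910 FPKM in controls. No gene of these lists was at 0 in all libraries, and their part in the result was not tested.

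**Figure D4:**
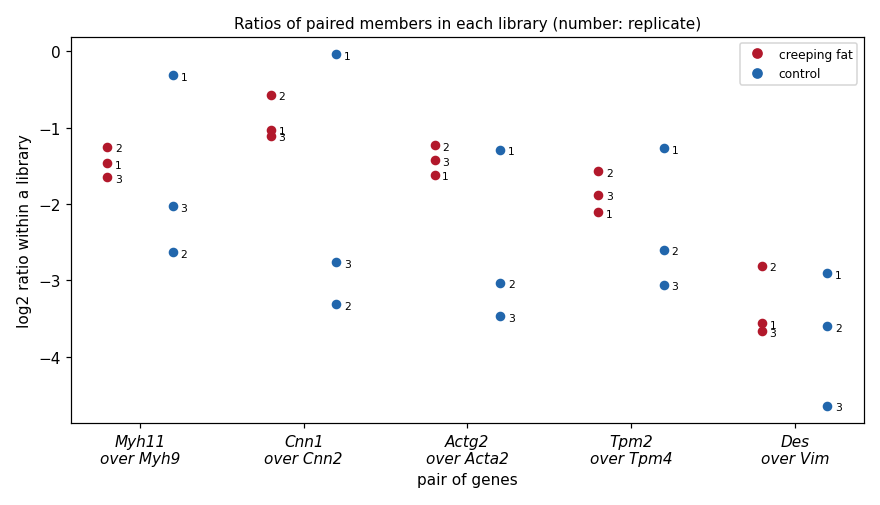
Log2 ratio of FPKM + 1 between 2 members of a pair within each library, for 5 pairs, with the replicate number at each point. The 3 creeping fat libraries of a pair lie close together between control 1 and the other 2 controls for Cnn1 over Cnn2, Myh11 over Myh9 and Tpm2 over Tpm4.

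Log2 ratios of FPKM + 1 within a library depend on the library total only through the added 1. Except for Actg2 over Acta2, both smooth muscle genes, they set a more muscle-type member over a broader one. For Myh11 over Myh9 the log2 ratio was -1.47, -1.25 and -1.65 in the creeping fat libraries and -0.32, -2.63 and -2.03 in the control libraries. Cnn1 over Cnn2 gave -1.03, -0.57 and -1.11 in creeping fat against -0.04, -3.31 and -2.76 in controls. For both pairs the creeping fat libraries lay between control 1 and the other controls. For Actg2 over Acta2, the visceral against the vascular actin, the ratio was -1.62, -1.23 and -1.43 in creeping fat and -1.29, -3.03 and -3.47 in controls. There control 1 lay inside the creeping fat range. For Tpm2 over Tpm4 the mean log2 ratio was -1.85 ± 0.27 in creeping fat and -2.31 ± 0.93 in controls, and for Des over Vim -3.35 ± 0.47 and -3.72 ± 0.88 (SD, n = 3 each). The exact two-sided permutation p of the group difference in these 5 pairs was 0.8, 0.4, 0.3, 0.5 and 0.5 in the order given, and 3 libraries against 3 cannot go below 0.1. For Tagln over Tagln2, where Tagln had few reads, the difference was -0.28 and turned to 0.48 with a pseudocount of 0.1.

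Among other contractile and smooth muscle genes, a list of 54 symbols with 51 in the table and 50 tested, 8 rose and 3 fell, against 9.35% and 6.81% of all genes, with a median of 0.30. The 3 largest rises were those of Kcnma1, Fhl2 and Gata6. Kcnma1, the pore-forming subunit that pairs with Kcnmb1, stood at 14.9, 5.0 and 5.99 FPKM in creeping fat and 1.04, 0.818 and 0.665 FPKM in controls (2.25 ± 0.36, adjusted p = 0.00921). Fhl2, a LIM-domain cofactor, averaged 16.3 ± 4.12 and 3.82 ± 0.951 FPKM (1.84 ± 0.24, adjusted p = 0.00455), and Gata6, a transcription factor, averaged 20.2 ± 5.18 and 7.40 ± 2.39 FPKM (1.34 ± 0.26, adjusted p = 0.0171). Among the genes that fell were Sncg (-2.85 ± 0.61, adjusted p = 0.0236), which adipocytes also express, and Rbpms2 (-1.27 ± 0.27, adjusted p = 0.0231). The calls of Kcnma1 and Fhl2 held when any 1 library was left out. That of Gata6 was lost without creeping fat 2, creeping fat 3, control 1 or control 3 (adjusted p 0.0575 to 0.0762), that of Sncg without control 1 or any creeping fat library (0.0552 to 0.083), and that of Rbpms2 without each library other than control 2 (0.0547 to 0.093). The counts of genes higher and lower were 6 and 1 without control 1, against 6.12% and 3.98% of all genes, and 13 and 6 without control 2, against 22.6% and 14.5%.

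Of 22 tested genes in a list of other pericyte and mural genes 3 rose and 2 fell, against 9.35% and 6.81% of all genes, with a median of 0.05. Tbx18, a transcription factor of mural cells, stood at 3.35, 2.34 and 2.15 FPKM in creeping fat and 0.171, 0.0754 and 0.167 FPKM in controls (1.65 ± 0.18, adjusted p = 0.00277). Anpep, an aminopeptidase of pericytes that fibroblasts and macrophages also express, rose by 1.44 ± 0.24 (60.7 ± 12.1 against 22.0 ± 5.72 FPKM, adjusted p = 0.00999). Adra2a, an adrenergic receptor, rose by 0.77 ± 0.18 (adjusted p = 0.0305). Ebf1 fell by 0.79 ± 0.17 (adjusted p = 0.0216) and Higd1b by 0.57 ± 0.14 (2.07 ± 0.323 against 3.55 ± 0.154 FPKM, adjusted p = 0.04). The calls of Tbx18 and Anpep held when any 1 library was left out. Those of Adra2a and Higd1b were lost without each library other than control 2 (adjusted p 0.06 to 0.129 and 0.0792 to 0.164), and that of Ebf1 without each other than control 1 and 2 (0.0626 to 0.087). The counts of genes higher and lower were 2 and 1 without control 1, against 6.12% and 3.98% of all genes, and 3 and 7 without control 2, against 22.6% and 14.5%.

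Markers of other muscle and of the gut wall were checked beside these values. Skeletal muscle markers, 14 genes, summed to 10.1 to 27.1 FPKM in creeping fat and 13.1 to 32.5 FPKM in controls, and cardiac markers, 7 genes, to 2.93 to 7.77 and 1.68 to 7.42 FPKM. Of the 4 skeletal markers tested 3 did not pass and Myl1 fell (-2.15 ± 0.35, adjusted p = 0.00943), against 6.81% of all tested genes. Its mean was 0.554 FPKM in creeping fat and 6.35 FPKM in controls, and the call held when any 1 library was left out. Genes of interstitial cells of Cajal and enteric neurons, 12 in all, summed to 34.7, 29.5 and 23.2 FPKM in creeping fat, against 27.8, 26.8 and 24.3 FPKM in controls. Intestinal epithelial markers, 8 genes, summed to 152, 121 and 18.3 FPKM in creeping fat and 11.1, 61.4 and 77.0 FPKM in controls. Control 1 therefore had the lowest epithelial sum of all 6 libraries and a sum of Cajal and neuron genes inside the range of creeping fat.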

How the data were processed

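Per the labels' protocols, stranded total RNA libraries were made after ribosomal RNA removal from RNA with an integrity number of at least 7. The authors deposited FPKM for 22134 gene symbols in 6 libraries, and no counts were used. The submitters' processing notes name mm10 as the build; for the aligner, counter, annotation and strand setting the answer is not given in the sources used here. Reads that overlapping genes or near-identical relatives (the actins, for example) share may have been split in unknown ways.

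Groups and replicate numbers came from the sample titles. The 12812 genes reaching 1 FPKM in 3 or more libraries were fitted as log2(FPKM + 1) with limma 3.58.1 in R 4.3.3, with the group as the only term, a trended eBayes prior and two-sided p-values, Benjamini-Hochberg adjusted over all genes tested. Errors of FPKM are SDs over 3 libraries and errors of fold changes moderated SEs. Whole reads were recovered from the FPKM values within 0.002 reads for 18713 of 18714 genes above 0, by the smallest gene length that gave whole reads in every library; for genes with few reads such a length nearly always exists. A floor of 3 reads in 1 kilobase is 0.0691 to 0.0962 FPKM, for counting error only. The fit and the recovery were tested on simulated data.

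Members, lists, classes and the rule for named genes (all members; the 3 largest called rises and falls of the other contractile and mural lists) were chosen with earlier results of these data known. One gene that this rule names is not reported here. Alternatives were other pseudocounts, filters and scalings, voom on recovered reads, a replicate block and libraries left out. Positions are from GENCODE M21 (GRCm38) and promoters from RefSeq GRCm38.p6.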

Additional observations from a re-analysis of the deposited data

How the results depend on the processing

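Every called member kept its sign in all 15 settings run, the reported one included. The number of members higher was 7 as reported, 4 after quantile normalization and 3 to 12 with 1 library left out. The number lower was 1 as reported, 0 without the filter, after quantile normalization and by voom on recovered reads, 2 without both creeping fat 2 and control 2, and 0 to 2 with 1 library left out. Over all genes 1198 were higher and 872 lower, 576 to 2896 and 287 to 1857 with 1 library left out, and 2713 and 1731 without both creeping fat 2 and control 2. The all-gene counts were 1217 higher and 980 lower after quantile normalization, where fewer members passed, and 1135 and 774 by voom. Without the filter they were 1102 and 719, of 18714 genes. The median of all genes moved to 0.13 without control 2 and 0.15 without both, where that of the members was 0.47 and 0.39. Same-numbered libraries did not deviate together (r = -0.181, -0.18 and -0.081 across genes), and r of the other pairs ran from -0.138 to 0.243. Deviations from means of only 3 libraries cannot tell whether the numbers pair them, and the labels do not say. With a replicate block 3 members were higher and 0 lower, and 636 and 378 of all genes. With 1 library left out, differences that were not called changed sign: Myl6 ranged from -0.14 to 0.19, Actn4 from -0.23 to 0.0052, Myocd from -0.25 to 0.037, Ppp1r12a from -0.063 to 0.17, Ppp1r14a from -0.48 to 0.044, Rock1 from -0.31 to 0.017, Kcnmb1 from -0.19 to 0.34 and Rgs5 from -0.31 to 0.55. Without both creeping fat 2 and control 2, Myl6 was -0.19, Rock1 0.12, Kcnmb1 -0.040 and Rgs5 -0.41; Kcnmb1 was -0.083 after quantile normalization and Ppp1r12a -0.011 by voom. Voom called Myh10, Cnn3, Pdgfrb, Tagln2 and Actn1. The difference in the log2 ratio of Myh11 over Myh9 ranged from -0.28 to 0.88 and that of Des over Vim from -0.092 to 0.78 with 1 library left out, and that of Tagln over Tagln2 was 0.48 with a pseudocount of 0.1. The causes were not tested. With 3 libraries a group and a control spread as wide as that of the smooth muscle genes, a p above the threshold does not show that levels were alike.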
